A study of Oryza sativa Indica Group with 6 samples.

Results

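The cinnamyl alcohol dehydrogenase (CAD) family of rice was followed through 10 loci, out of 55982 loci with a single entry, and was chosen by name, with earlier results of these data known: *CAD1* (LOC_Os10g11810), *CAD2/gh2* (LOC_Os02g09490), *CAD3* (LOC_Os10g29470), *CAD4* (LOC_Os11g40690), *CAD5* (LOC_Os08g16910), *CAD6* (LOC_Os04g15920), *CAD7* (LOC_Os04g52280), LOC_Os09g23530 and LOC_Os09g23540 of the *CAD8* cluster, and *CAD9* (LOC_Os03g12270). RNA-seq gave the transcript levels of the *ssh1* mutant (3 biological replicates) and of the wild type (3 biological replicates), each replicate being a pool of plants harvested when the young panicles were 0 to 4 cm long. The wild type is YIL100, an introgression line of wild rice (*Oryza rufipogon*) in the *indica* variety Teqing, which sheds its seeds. The *ssh1* mutant is 1 line recovered after EMS mutagenesis of YIL100, is labelled as homozygous for the mutant allele, and carries a C-to-A change in an intron of *SUPERNUMERARY BRACT* (*SNB*), so that both groups share the YIL100 background and other changes from the mutagenesis cannot be told apart from that allele.

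CAD enzymes reduce cinnamaldehydes to the corresponding cinnamyl alcohols, the monolignols, with NADPH as the reductant. This is the last step of monolignol synthesis before the alcohols are exported to the wall and polymerized into lignin. In rice, *CAD2* is the gene of the *gold hull and internode2* (*gh2*) mutant, whose hulls and internodes turn reddish because lignin synthesis is impaired, and *CAD7* is the gene of the *flexible culm1* (*fc1*) mutant, whose culms are weak. The roles of the other members are less well defined. SH5, a BELL-type homeobox factor that promotes shattering, is known from earlier work in rice as a repressor of *CAD* expression and of lignin deposition at the seed base, and the comparison of *ssh1* with the wild type asks how *CAD* transcripts stand when *SNB* is impaired.

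The deposited values are FPKM (fragments scaled to the length of the transcript and to the size of the library), which allow levels to be compared between genes. The values summed to between 832551 and 956551 FPKM in *ssh1* and between 883159 and 978426 FPKM in the wild type, and the spacing of low values put the depth of the libraries within -0.24 to 0.06 on the log2 scale of that of wild-type replicate 1. *SNB* itself had 7.97, 7.44, and 8.86 FPKM in *ssh1* against 20.9, 16.9, and 18.0 FPKM in the wild type, in the direction of the labels, although the FPKM of a whole gene does not separate less transcript from a shortened one. Of 10 genes that mark young panicles and flowers, 8 were above the filter on low values, while *FZP*, a gene of the spikelet meristem, was at or below 0.304 FPKM in every library. Of these 10, 5 fell and 0 rose in *ssh1* by the test described below, whereas 2 of 4 genes of green tissue rose and 0 fell. Over all genes tested, 28.0% fell and 17.0% rose. Of the 2 green-tissue genes that rose, 1 had a wild-type mean below 1 FPKM and thus passed the filter through *ssh1*. The summed level of the 10 markers was 589 to 713 FPKM in *ssh1* and 872 to 1009 FPKM in the wild type, and that of the 4 genes of green tissue was 210 to 510 FPKM in *ssh1* and 189 to 288 FPKM in the wild type. Of the 7 genes of the anther tapetum and pollen wall, 3 were above the filter, of which 1 fell and 0 rose. *C6* was listed at 0 in all 6 libraries, and the summed level of the 7 was 4.25 to 6.36 FPKM in *ssh1* and 8.85 to 11.01 FPKM in the wild type. The part that these shifts in tissue or stage have in the results below was not tested.

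Among the members above the filter on low values, *CAD2/gh2* was much higher in *ssh1*, while the others lay below the wild type or overlapped it. *CAD5*, under the filter, was higher in *ssh1* at a low level. Differences were tested on log2(FPKM + 1) with limma over the 18537 genes whose values averaged 1 FPKM or more across the 6 samples, and a gene is said here to have risen or fallen at an adjusted p below 0.05 (Benjamini-Hochberg over all genes tested). Of the 10 members, 7 could be tested in this way, of which 1 rose (*CAD2/gh2*), 2 fell (LOC_Os09g23540 and *CAD7*), and 4 did neither (*CAD1*, *CAD3*, *CAD6*, and *CAD9*). Over all genes tested, 17.0% rose and 28.0% fell, so that the number of members that passed is not in itself a result about the family. After median-of-ratios scaling the shares over all genes were 21.7% and 19.2%, and among the members 1 rose and 1 fell. At the thresholds of the study, a 2-fold change with an adjusted p under 0.001, 0 of the 10 members passed in limma against 5.11% of the genes tested, whereas 5 of the 7 tested members had an unadjusted p below 0.05. The study applied its thresholds to another test, Cuffdiff, and reported *CAD* among the lignin genes that were higher in *ssh1*. The 3 other members, *CAD4*, *CAD5*, and LOC_Os09g23530, had a mean below 1 FPKM.

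**Figure D1:**
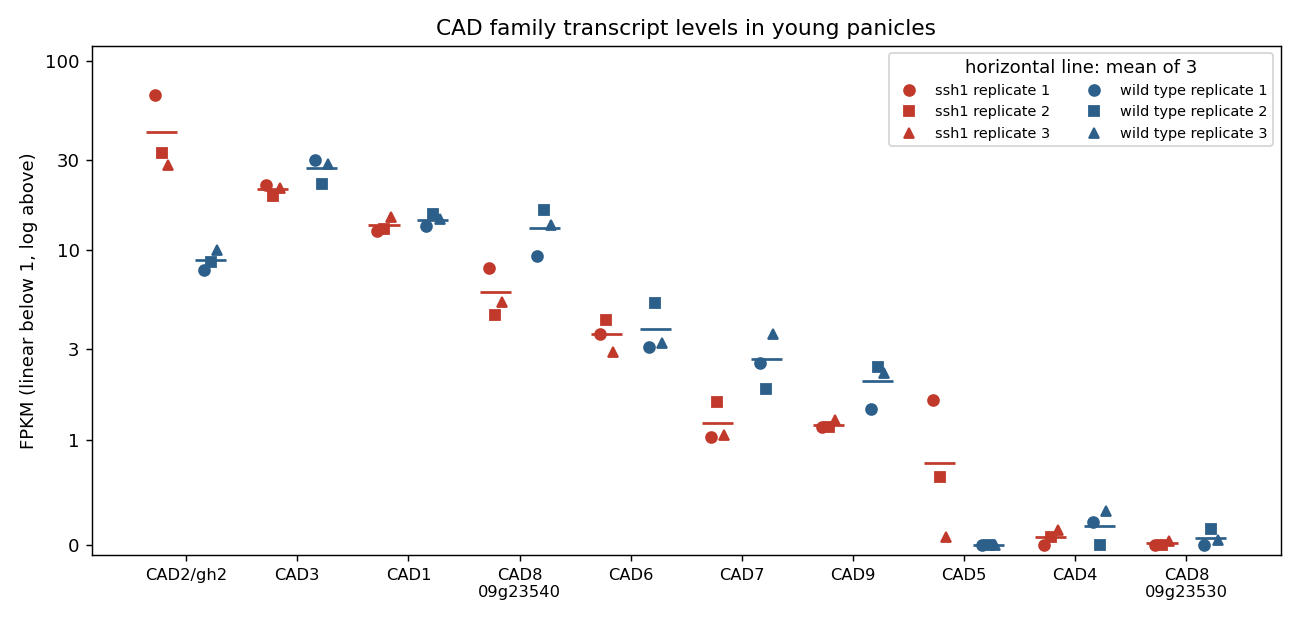
Transcript level (FPKM, linear below 1 and logarithmic above) of the 10 *CAD* members in each *ssh1* replicate (red, left of each pair) and wild-type replicate (blue, right), with the mean of the 3 as a line. All *ssh1* replicates of *CAD2/gh2* lie between 28.2 and 65.8 FPKM, above the wild-type range of 7.87 to 10.1 FPKM, while *CAD3*, LOC_Os09g23540, *CAD7*, and *CAD9* lie below the wild type in all *ssh1* replicates.

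*CAD2/gh2*, the main *CAD* of lignin synthesis in rice, had 65.8, 32.7, and 28.2 FPKM in *ssh1* replicates 1, 2, and 3, against 7.87, 8.68, and 10.1 FPKM in the wild type. The groups did not overlap, and the lowest *ssh1* replicate was well above the highest wild-type replicate. The means were 42.3 ± 20.5 FPKM in *ssh1* and 8.88 ± 1.12 FPKM in the wild type (SD, n = 3 each), a ratio of 4.76 and a log2 fold change in limma of 2.04 ± 0.31 (± SE, the standard error; adjusted p = 0.00342). The spread was wider in the mutant, with a coefficient of variation of 48.6% in *ssh1* against 12.6% in the wild type, and replicate 1 was the highest. Without *ssh1* replicate 1 the log2 fold change was 1.67 (adjusted p = 0.00152 in limma). By a two-sided exact permutation test the p was 0.1, the smallest that 3 replicates against 3 allow. In whole panicles, more cells that express a gene and more RNA per cell cannot be told apart.

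*CAD7*, which serves lignin synthesis in the culm, moved the other way at a low level. It had 1.03, 1.59, and 1.06 FPKM in *ssh1* against 2.55, 1.86, and 3.62 FPKM in the wild type. The ranges came close to each other, at *ssh1* replicate 2 and wild-type replicate 2, but did not overlap. The log2 fold change was -0.71 ± 0.21 (± SE; adjusted p = 0.0367 in limma). This call was lost when wild-type replicate 1, wild-type replicate 3, *ssh1* replicate 1, or *ssh1* replicate 3 was left out (adjusted p between 0.0858 and 0.0945 in limma), and also after median-of-ratios scaling (log2 fold change -0.62, adjusted p = 0.0656 in limma).

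The *CAD8* genes form a tandem cluster: the RefSeq gene table (ASM3414082v1) lists 4 *CAD8* genes next to each other on chromosome 9, with 0 other genes between them. Of the cluster, LOC_Os09g23540 had 8.11, 4.57, and 5.31 FPKM in *ssh1* against 9.35, 16.4, and 13.6 FPKM in the wild type. All *ssh1* replicates were below all wild-type replicates, with *ssh1* replicate 1 and wild-type replicate 1 nearest to each other. The means were 5.998 ± 1.87 FPKM in *ssh1* and 13.1 ± 3.52 FPKM in the wild type (SD, n = 3 each), and the log2 fold change was -1.01 ± 0.25 (± SE; adjusted p = 0.0204 in limma). Without wild-type replicate 2, wild-type replicate 3, or *ssh1* replicate 3 the adjusted p from limma was 0.0676, 0.0692, and 0.0537, and the log2 fold change stayed between -1.22 and -0.84 over all 6 omissions.

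The next gene of the cluster, LOC_Os09g23550, which is not among the 10 members, followed the same pattern. It had 10.2, 6.07, and 8.33 FPKM in *ssh1* against 12.5, 18.2, and 16.5 FPKM in the wild type, without overlap. Its log2 fold change was -0.88 ± 0.21 (± SE; adjusted p = 0.0166 in limma). In both genes *ssh1* replicate 2 was the lowest and wild-type replicate 2 the highest library, and the level of LOC_Os09g23550 was 1.12 to 1.57 times that of LOC_Os09g23540 in every library. How the reads of near-identical copies were divided between the genes of the cluster is not given in the sources used here, so that the 2 loci may not be independent measurements.

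The rest of the cluster was nearly silent. LOC_Os09g23530 was listed at 0 in *ssh1* replicates 1 and 2 and had 0.0420 FPKM in *ssh1* replicate 3, against 0, 0.148, and 0.0488 FPKM in the wild type. LOC_Os09g23560, also outside the 10 members, was listed at 0 in all 6 libraries. The reads of the cluster were thus listed almost wholly under its middle pair, and whether the division of reads between copies set the low values of the outer genes was not tested.

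*CAD3* and *CAD1* were the most abundant members in the wild type. *CAD3* had 22.2, 19.4, and 21.4 FPKM in *ssh1* against 30.1, 22.5, and 28.6 FPKM in the wild type. The groups were parted by a narrow gap between *ssh1* replicate 1 and wild-type replicate 2, and the log2 fold change of -0.34 ± 0.12 (SE) had an adjusted p of 0.0622 in limma. Without wild-type replicate 2 the adjusted p from limma was 0.0192, and it was above 0.05 in the other 5 omissions (up to 0.182). *CAD1* had 12.7, 12.9, and 15.0 FPKM in *ssh1* against 13.4, 15.5, and 14.6 FPKM in the wild type. Its groups overlapped, and its log2 fold change of -0.09 ± 0.09 (± SE; adjusted p = 0.441 in limma) lay beside the median of all genes tested, which was -0.14.

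*CAD6* and *CAD9* were expressed at a few FPKM. *CAD6* had 3.63, 4.29, and 2.91 FPKM in *ssh1* against 3.08, 5.27, and 3.24 FPKM in the wild type, with overlapping groups and a log2 fold change of -0.06 ± 0.21 (± SE; adjusted p = 0.831 in limma). The sign of such small differences is not stable: after median-of-ratios scaling the log2 fold change was 0.05 for *CAD6* and 0.04 for *CAD1*. *CAD9* had 1.16, 1.17, and 1.27 FPKM in *ssh1* against 1.45, 2.41, and 2.26 FPKM in the wild type. The 3 *ssh1* replicates were close together below all wild-type replicates, and the log2 fold change was -0.45 ± 0.16 (± SE; adjusted p = 0.0652 in limma). Without wild-type replicate 1, the wild-type library nearest to *ssh1*, it was -0.60 (adjusted p = 0.0279 in limma), whereas the other 5 omissions gave -0.48 to -0.36 (adjusted p between 0.1 and 0.176 in limma).

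*CAD5* was the one member listed at 0 in every wild-type library. In *ssh1* it had 1.62, 0.642, and 0.0725 FPKM in replicates 1, 2, and 3, so that all mutant replicates were above the wild type but spread widely. With no filter on low values its log2 fold change was 0.73 ± 0.31 (± SE; adjusted p = 0.147 in limma), and the reads behind these low values are unknown. *CAD4* had 0, 0.0768, and 0.139 FPKM in *ssh1* against 0.218, 0, and 0.324 FPKM in the wild type, with overlapping groups. Over the 10 members, the *ssh1* replicates lay above all wild-type replicates in 2 (*CAD2/gh2* and *CAD5*), below all of them in 4 (*CAD3*, *CAD7*, *CAD9*, and LOC_Os09g23540), and overlapped them in 4. Among the 30210 genes above 0 in at least 1 sample, the shares were 15.6% above and 27.4% below.

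**Figure D2:**
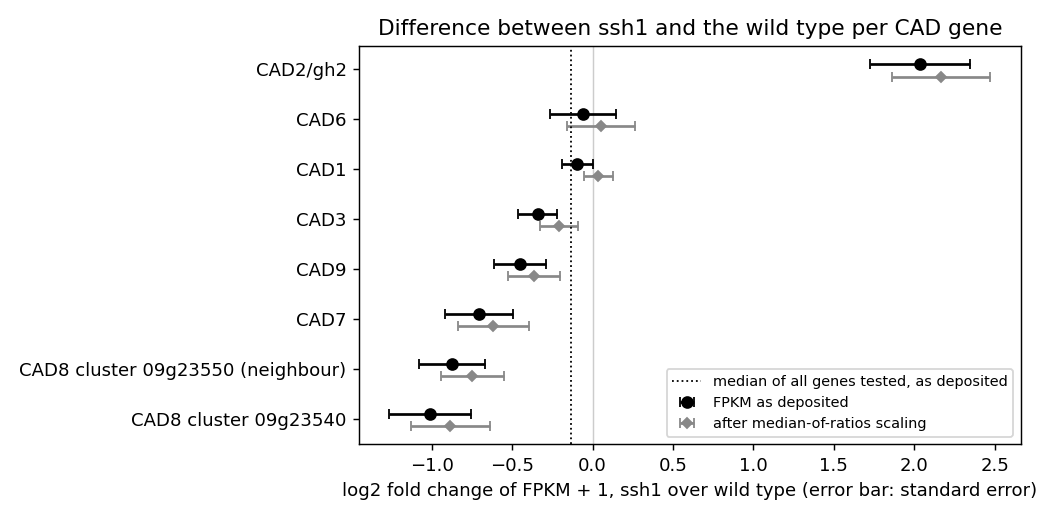
Log2 fold change of FPKM + 1 in *ssh1* over the wild type (points, with the standard error from limma) for the 7 *CAD* members tested and the neighbouring LOC_Os09g23550, as deposited (black) and after median-of-ratios scaling (grey); the dotted line is the median of all genes tested. *CAD2/gh2* stands at 2.04, while the other genes lie between -1.01 and -0.06 as deposited.

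The order of the levels changed with genotype. In *ssh1*, *CAD2/gh2* came first with a mean of 42.3 FPKM, followed by *CAD3* (21.0 FPKM), *CAD1* (13.5 FPKM), LOC_Os09g23540 (5.998 FPKM), and *CAD6* (3.61 FPKM), and the ranges of neighbours in this order did not overlap. In the wild type, *CAD3* came first with a mean of 27.1 FPKM, followed by *CAD1* (14.5 FPKM), LOC_Os09g23540 (13.1 FPKM), *CAD2/gh2* (8.88 FPKM), and *CAD6* (3.87 FPKM). There, the range of LOC_Os09g23540 overlapped those of both of its neighbours, *CAD1* and *CAD2/gh2*. *CAD7* and *CAD9* ranked next in both genotypes, with overlapping ranges in each.

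Summed over the 10 members, *CAD* transcripts came to 116, 77.4, and 75.4 FPKM in *ssh1* against 68.1, 72.7, and 76.3 FPKM in the wild type. The sums overlapped, with a mean of 89.7 ± 23.0 FPKM in *ssh1* and 72.4 ± 4.12 FPKM in the wild type (SD, n = 3 each), and the difference of 17.3 FPKM was 4.03 FPKM without *ssh1* replicate 1. LOC_Os09g23550 of the *CAD8* cluster, not among the 10 members, is left out of the sum. It was at 6.07 to 10.2 FPKM in *ssh1* and 12.5 to 18.2 FPKM in the wild type, so that including it would narrow the difference. Without *ssh1* replicate 1, even the sign of the difference depends on that choice. The make-up of the sum differed more than its size. *CAD2/gh2* made up 56.6%, 42.3%, and 37.4% of it in *ssh1* against 11.6%, 11.9%, and 13.2% in the wild type. The other 9 members together had 50.4, 44.7, and 47.2 FPKM in *ssh1* against 60.2, 64.0, and 66.3 FPKM in the wild type, without overlap. LOC_Os09g23540 made up 6.97%, 5.90%, and 7.04% of the sum in *ssh1* against 13.7%, 22.5%, and 17.8% in the wild type. Shares of one sum depend on each other, and these values are a description with no test.

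**Figure D3:**
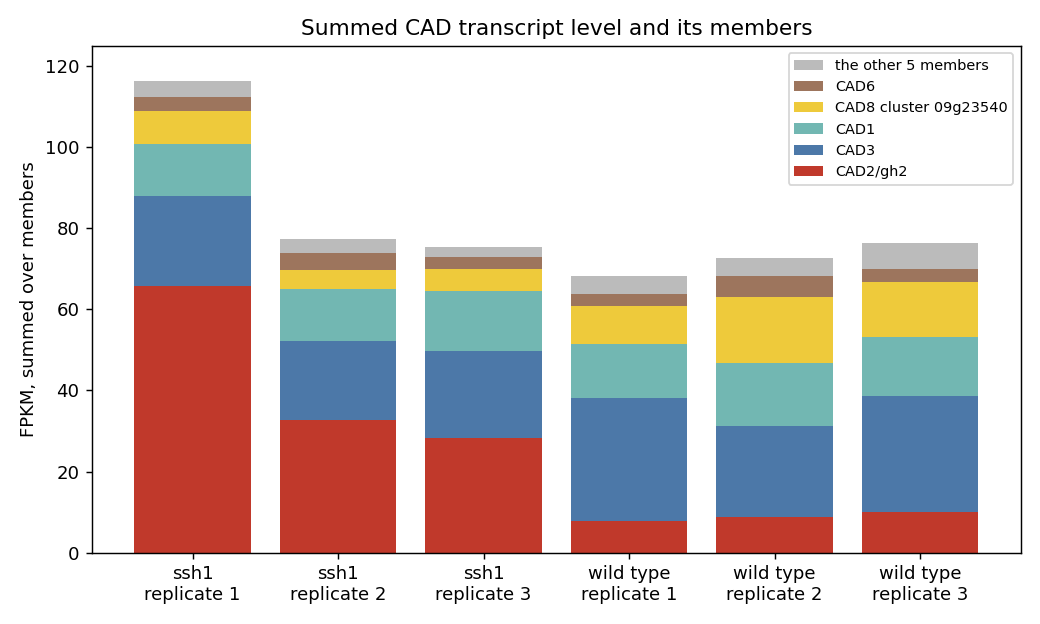
Summed FPKM of the 10 *CAD* members in each library, *ssh1* on the left and the wild type on the right, divided by member. The *CAD2/gh2* block makes up 37.4% to 56.6% of the bar in *ssh1* and 11.6% to 13.2% in the wild type, and *ssh1* replicate 1 has the tallest bar at 116 FPKM.

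The steps before CAD supply its substrates. PAL, C4H, and 4CL make *p*-coumaroyl-CoA, and HCT, C3′H, and CCoAOMT take part in the changes to its aromatic ring. CCR reduces the CoA esters to the aldehydes that CAD takes up. Of 33 genes listed for these steps and for F5H, which hydroxylates the ring, 13 rose in *ssh1*, 1 fell, 7 did neither, and 12 were below the filter. The shares over all genes tested were 17.0% that rose and 28.0% that fell. Among the 13 that rose, 4 had a wild-type mean below 1 FPKM and thus passed the filter through *ssh1*, and 9 were above it in the wild type too. Over all 33, tested or not, the median difference in log2(FPKM + 1) was 0.69, against -0.11 over all 10 *CAD* members and -0.04 over the 30210 genes above 0 in at least 1 sample. The *ssh1* replicates lay above all wild-type replicates in 17 of the 33 and below all of them in 1, beside the shares of 15.6% and 27.4% given above. Several upstream steps held more than 1 gene that rose, and the CAD step held 1. This contrast depends in part on the filter, and some of the upstream genes that rose have close locus numbers and may not be independent. Counting only genes with a wild-type mean of at least 1 FPKM, *CCR* held 3 that rose and *CCoAOMT* 2. *PAL* and *4CL* then held 1 each, as did the CAD step.

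By step, 4 of 9 *PAL* genes rose. Among them, LOC_Os02g41650, LOC_Os02g41670, and LOC_Os02g41680 have close locus numbers, as have the *CCoAOMT* genes that rose, LOC_Os08g38900 and LOC_Os08g38910. As in the *CAD8* cluster, the division of reads between similar copies is not given, so that these loci may not be independent measurements. On the log2(FPKM + 1) scale LOC_Os02g41650 led, with 55.1 ± 27.9 FPKM in *ssh1* and 10.2 ± 0.830 FPKM in the wild type (SD, n = 3 each). Its ratio of means, 5.40, was the lowest of the 4, since the added 1 holds down the other 3, whose wild-type means were below 1 FPKM. The highest ratio, 32.6, was that of LOC_Os05g35290, with 4.12 ± 2.04 FPKM in *ssh1* and 0.126 ± 0.0610 FPKM in the wild type (SD, n = 3 each). Of the 5 *4CL* genes 2 rose, LOC_Os08g34790 by the most, with 7.38 ± 3.78 FPKM in *ssh1* and 0.135 ± 0.0276 FPKM in the wild type (SD, n = 3 each). Of the 5 *CCoAOMT* genes 2 rose, LOC_Os08g38910 by the most (log2 fold change 2.18, adjusted p = 0.00512 in limma), and LOC_Os08g05790 fell (-0.88, adjusted p = 0.00287 in limma). All 3 of the tested *CCR* genes rose, among them LOC_Os08g34280, with 93.7 ± 13.4 FPKM in *ssh1* and 23.9 ± 1.74 FPKM in the wild type (SD, n = 3 each), which passed the thresholds of the study, as did the *4CL* gene LOC_Os02g08100. The single *C3′H* gene (log2 fold change 0.70, adjusted p = 0.0111 in limma) and 1 of the 2 *HCT* genes, LOC_Os04g42250 (0.37, adjusted p = 0.0068 in limma), rose as well. The 1 tested *C4H* gene (1.79, adjusted p = 0.0896 in limma) did not pass. The 3 *F5H* genes were listed at or near 0, with at most 0.0576 FPKM.

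**Figure D4:**
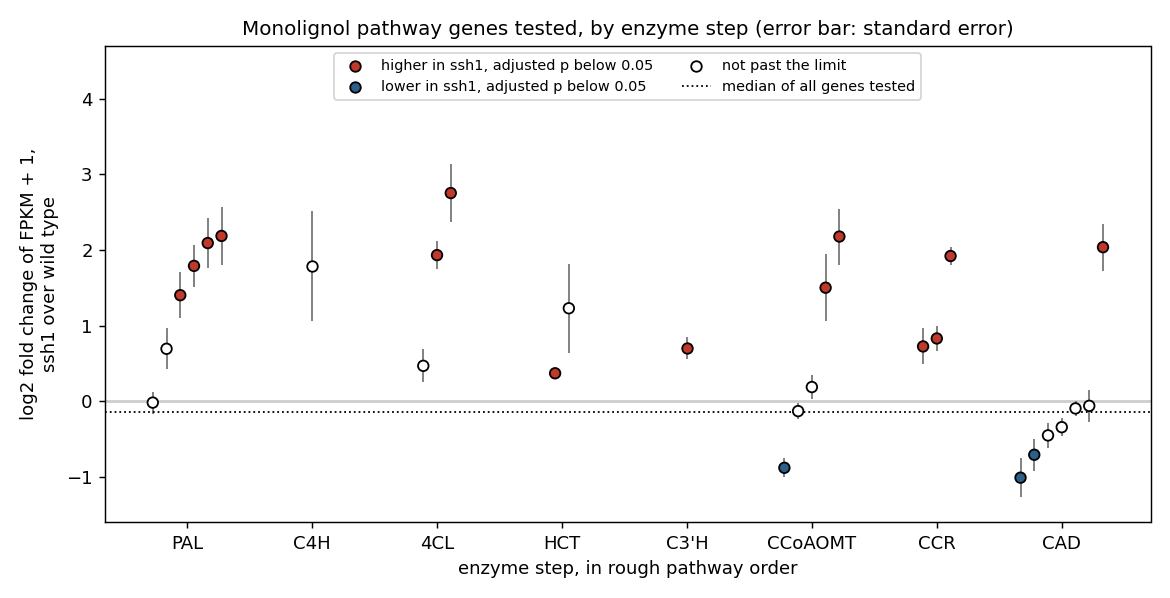
Log2 fold change of FPKM + 1 in *ssh1* over the wild type for the tested genes of each enzyme step (points, with the standard error from limma), red where higher and blue where lower at an adjusted p below 0.05, and white otherwise. The CAD step on the right holds 1 red point, *CAD2/gh2* at 2.04, above 6 members that lie between -1.01 and -0.06.

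The replicates of *ssh1* took the same order in *CAD2/gh2* as in most of these genes. In *CAD2/gh2* and *CAD5*, replicate 1 was the highest and replicate 3 the lowest, and the same held for 12 of the 13 upstream genes that rose, against 27.2% of all genes that rose and 14.6% of all genes tested. Some of these 13 genes have close locus numbers and may not be independent. *CAD7*, *CAD9*, and LOC_Os09g23540 did not take this order. The 3 genes outside the family whose log2(FPKM + 1) was most like that of *CAD2/gh2* over the 6 samples were LOC_Os03g13870 (Pearson's r = 0.999), LOC_Os01g55370 (r = 0.998), and LOC_Os05g03140 (r = 0.997). With 2 genotypes that stand apart, a gene that rose can score high on this measure through the difference between them, and 903 of 18529 genes had an r above 0.95. LOC_Os03g13870, the most alike, had 35.3, 12.8, and 11.5 FPKM in *ssh1* against 2.01, 2.26, and 2.99 FPKM in the wild type.

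*SH5* had 26.7, 30.3, and 37.7 FPKM in *ssh1* replicates 1, 2, and 3 against 85.4, 83.2, and 69.1 FPKM in the wild type, a log2 fold change of -1.31 ± 0.15 (± SE; adjusted p = 0.00115 in limma). *SH5* was thus low in the libraries where *CAD2/gh2* was high, and within *ssh1* the replicate with the least *SH5*, replicate 1, had the most *CAD2/gh2*. The wild-type replicates were in inverse order too, with replicate 3 lowest in *SH5* and highest in *CAD2/gh2*. There, *CAD2/gh2* spanned only 7.87 to 10.1 FPKM, and the share of all genes with that order in the wild type was not computed. Among all genes that rose, 27.2% took the replicate order of *CAD2/gh2* within *ssh1*. With 2 separate clusters of 3 libraries, no correlation is given, and a link between *SH5* and *CAD2/gh2* was not tested. *OSH15*, the KNOX partner of SH5, had 19.7, 10.8, and 24.8 FPKM in *ssh1* against 70.5, 74.4, and 72.2 FPKM in the wild type, and its order among the *ssh1* replicates was not the inverse of that of *CAD2/gh2*. Of the 10 members, *CAD2/gh2* and *CAD5* lay above the wild type in all *ssh1* replicates, while *CAD3*, *CAD7*, *CAD9*, and LOC_Os09g23540 lay below it. The libraries with low *SH5* are the *ssh1* libraries, so that the level of *SH5* and the genotype cannot be told apart here.

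The other regulators of shattering on the list were lower in *ssh1* too, except *SH4*. The BELL-type homeobox gene *qSH1* had 29.9, 22.0, and 24.6 FPKM in *ssh1* against 49.3, 51.2, and 47.4 FPKM in the wild type (log2 fold change -0.94, adjusted p = 0.00165 in limma). *SHAT1*, which encodes an AP2 factor, had 13.1, 14.0, and 14.8 FPKM in *ssh1* against 23.5, 17.0, and 23.9 FPKM in the wild type (log2 fold change -0.57, adjusted p = 0.0189 in limma), a call lost without wild-type replicate 1, wild-type replicate 3, or *ssh1* replicate 1 (adjusted p between 0.0563 and 0.0712 in limma). *SH4* had 7.85, 0.447, and 9.13 FPKM in *ssh1* against 5.33, 4.21, and 4.05 FPKM in the wild type, with *ssh1* replicate 2 below all other libraries and the other *ssh1* replicates above the wild type. Its log2 fold change was -0.12 (adjusted p = 0.905 in limma), and 0.78 (adjusted p = 0.00899 in limma) without *ssh1* replicate 2.

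The 10 listed genes of secondary walls were mostly at low levels: 7 were below the filter, and of the 3 tested, 1 rose and 2 fell. Over all genes tested, 17.0% rose and 28.0% fell. The *ssh1* replicates lay above all wild-type replicates in 3 of the 10 and below all of them in 2, beside the shares of 15.6% and 27.4% over all genes. LOC_Os01g18240, listed as the MYB factor *MYB61*, had 7.25, 4.93, and 2.13 FPKM in *ssh1* against 1.17, 1.09, and 1.39 FPKM in the wild type (log2 fold change 1.27, adjusted p = 0.0267 in limma), with the *ssh1* replicates in the order of *CAD2/gh2*. This call held without *ssh1* replicate 3 and was lost in the other 5 omissions (adjusted p between 0.0522 and 0.0815 in limma), with no filter (0.0503), and with the replicate block (0.053). LOC_Os08g02300, listed as the NAC factor *SWN2*, fell to 3.07 ± 0.766 FPKM in *ssh1*, against 11.8 ± 2.52 FPKM in the wild type (SD, n = 3 each; log2 fold change -1.66, adjusted p = 0.00146 in limma). *CesA4*, a cellulose synthase of secondary walls, fell by 0.40 on the log2 scale (adjusted p = 0.0168 in limma), a call lost without wild-type replicate 1 or 2 (adjusted p between 0.0506 and 0.0656 in limma) and with the replicate block (0.0538). Its partners *CesA7* and *CesA9* were at 0.310 to 1.80 FPKM and 0.283 to 0.887 FPKM in *ssh1*, against 0.698 to 0.782 FPKM and 0.491 to 0.735 FPKM in the wild type. Below the filter, *BC1*, a COBRA-like protein gene, had 0.259, 0.337, and 0.258 FPKM in *ssh1* against 0.122, 0, and 0.0814 FPKM in the wild type (log2 fold change 0.27, adjusted p = 0.0185 in limma with no filter). LOC_Os12g33070, listed as *MYB46*, had 0.547, 0.368, and 0.277 FPKM in *ssh1* against 0.174, 0.0651, and 0 FPKM in the wild type (log2 fold change 0.37, adjusted p = 0.035 in limma with no filter). Both were thus above all wild-type replicates at very low levels. LOC_Os06g04090, listed as *SWN1*, overlapped between the genotypes, with 0.169 to 0.277 FPKM in *ssh1* and 0.132 to 0.818 FPKM in the wild type. LOC_Os08g05520 was listed at 0 in all 6 libraries, and LOC_Os04g50770 at 0 in all but wild-type replicate 3 (0.0422 FPKM).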

How the data were processed

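RNA-seq was performed on young panicles of *ssh1* and the wild type (n = 3 each). The authors prepared paired-end libraries, mapped the reads with TopHat2 at default parameters to the Nipponbare genome (IRGSP-1.0, MSU7 annotation), and deposited FPKM per gene and replicate from Cuffdiff, whose versions are not given in the sources used here. FPKM keeps no record of read numbers, so no counting error or detection limit is given. The 4 locus IDs with repeated entries were dropped. Genes averaging 1 FPKM or more were tested as log2(FPKM + 1), which understates changes of low genes, with limma 3.58.1 in R 4.3.3 (mean-variance trend, genotype as the only term), with Benjamini-Hochberg adjustment. Cuffdiff needs reads and was not rerun. Exact permutation tests used scipy 1.17.1, and plots matplotlib 3.10.9.

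The members, the gene lists, and the rule for named genes (all members, their cluster neighbours, *SNB*, *SH5*, the largest called changes per step or list, lists of 10 or fewer, and the 3 genes most like *CAD2/gh2*) were chosen with earlier results of these data known. Genes of the marker lists for panicle, green tissue, and anther are given by counts and ranges, not each by name as the rule has it. Alternatives were other pseudocounts, filters, scalings, and call rules, robust estimation, a replicate block, and fits that omit a replicate. The RefSeq table holds none of the locus IDs, and 6 of 8 single *CAD* names and the *CAD8* cluster were found in it by name. Loci outside the family were listed from general knowledge of rice genes and were not checked against an annotation of the files' build. Of 35 single names outside the family, 24 were found in the table, 24 of them on the chromosome of their locus ID. A listed gene was left out after the lists were written and is not reported here. Sequences are not analysed here.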

Additional observations from a re-analysis of the deposited data

How the results depend on the processing

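*CAD2/gh2* stayed higher in *ssh1* in all 15 alternatives, with a log2 fold change of 1.67 to 2.27 and an adjusted p of 0.00152 to 0.0195 from limma. Of the called members, LOC_Os09g23540 (-1.01) missed an adjusted p of 0.05 with the replicate block (-1.01) and with no filter plus median-of-ratios scaling (-0.89, added after seeing the data), and ranged from -1.22 to -0.84 when a replicate was left out. *CAD7* (-0.71) missed it with no filter (-0.71), a common sum (-0.69), median-of-ratios scaling (-0.62, also without the filter), quantile normalization (-0.64), and the replicate block (-0.71), and ranged from -0.87 to -0.53 when a replicate was left out. *CAD1* turned to 0.036 under median-of-ratios scaling with or without the filter, and *CAD6* to 0.050 under it, to 0.025 after quantile normalization, and to between -0.17 and 0.14 with a replicate left out. The cause was not tested.

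Of the 3 members called, 1 was left with the replicate block, 1 with no filter plus median-of-ratios scaling, and 0 at the thresholds of the study (0 higher, 0 lower); the range was 1 to 3 with a replicate left out. The 2 lower calls became 1 with no filter, a minimum mean of 5 FPKM, a common sum, median-of-ratios scaling, or quantile normalization, 0 with the replicate block or with no filter plus median-of-ratios scaling, and 0 to 2 with a replicate left out. The 14 upstream calls became 8 (8 higher, 0 lower) at a minimum mean of 5 FPKM, where fewer genes are tested, and 2 (2 higher, 0 lower) at the thresholds of the study, and were 12 to 15 (11 to 14 higher, 1 to 2 lower) with a replicate left out. The 3 secondary wall calls became 1 (0 higher, 1 lower) at a minimum mean of 5 FPKM or with the replicate block, and 0 at the thresholds of the study (0 higher, 0 lower), with 2 higher without the filter, 1 lower after median-of-ratios scaling or quantile normalization, and 1 to 3 (0 to 1 higher, 1 to 2 lower) with a replicate left out. The share of *CAD2/gh2* in the summed *CAD* FPKM was 27.6 to 37.2 percentage points higher in *ssh1* with a replicate left out, and the difference of the sums was 4.03 to 24.5 FPKM.

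Same-numbered libraries of the genotypes were not paired: their deviations from the group means correlated at -0.10, -0.07, and -0.17 over genes, and the block took the calls over all genes from 8341 to 5901. The number of reads behind a low value, such as those of *CAD5*, is unknown.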
